A study of Sus scrofa with 6 samples.

Results

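Genes of resident tissue macrophages and of the complement system were examined in the long back muscle, the longissimus dorsi, of 3 UCP1 KI pigs and 3 WT pigs. All pigs were 6 months old, and each gave 1 RNA-seq library. The UCP1 KI pigs carry UCP1, the uncoupling protein of thermogenic fat, as a knock-in made with CRISPR/Cas9 and expressed in adipocytes, so that the muscle fibres themselves are not the cells in which the transgene is meant to act. WT pigs are unmodified pigs. The promoter that drives the transgene, the number of founder lines, the sex of the pigs and whether any were littermates are not given in the sources used here. The transcript of *UCP1* itself was not analysed here, so the genotype labels were not checked against it.

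The 10 genes were chosen by symbol, by a rule that names no measured value, and all 10 were found among the 30476 pig genes of the count table. All 10 also passed the filter on low counts, which kept 13402 genes. They fall into 3 groups by role, with 5 macrophage genes (*CD163*, *MRC1*, *CSF1R*, *CD68* and *AIF1*), the 3 chains of C1q (*C1QA*, *C1QB* and *C1QC*), and 2 genes of the alternative complement pathway (*C3* and *CFD*).

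Resident macrophages sit in the connective tissue between muscle fibres, where they clear debris and iron and survey the tissue. They depend on signals through the receptor encoded by *CSF1R*, and they carry scavenger and mannose receptors on their surface. Complement is a cascade of plasma proteins that labels targets for uptake. C1q starts the classical pathway and is made mainly by macrophages and related cells rather than by the liver. C3 is the central protein on which all pathways meet, and factor D, the product of *CFD*, is the protease that activates factor B in the alternative pathway. *CFD* is also known as adipsin, since adipocytes secrete it in large amounts.

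Counts on genes summed to between 30220951 and 35066624 per pig, and were scaled by TMM factors to counts per 1000000 (CPM). WT replicate 2 stood apart, with the lowest factor, 0.781, and 56.5% of its counts in its 20 most abundant genes, against 39.0% to 44.8% in the other pigs. Where a gene has 0 counts, up to 3 could have been missed, or between 0.0795 and 0.11 CPM by pig, for counting error only. The lowest count of any of the 10 genes was 54, for *CD68* in WT replicate 1, so depth did not limit whether they were detected. The muscle fibre genes *ACTA1*, *CKM* and *DES* together held between 44298 and 72296 CPM in every pig, so the libraries carry the RNA of the labelled tissue. In bulk tissue, a lower level of a gene from fewer cells of a type cannot be told apart from less RNA per cell.

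Of the 10 genes, *C3* was higher and *CFD* lower in UCP1 KI pigs, and the 5 macrophage genes and 3 C1q genes did not pass the limits. These were a p under 0.05 before adjustment in the quasi-likelihood test of edgeR, together with a log2 fold change beyond 0.5 in either direction. Among all 13402 genes tested, 8.19% passed these limits, 3.84% as higher and 4.34% as lower in UCP1 KI pigs, against 2 of these 10. After Benjamini-Hochberg adjustment of the edgeR p values, 0 of the 10 genes and 0 of all genes were under 0.05, where 2 of the 10 and 1100 of all genes (8.21%) had an unadjusted p under 0.05. DESeq2, run on the same genes, put 127 genes under an adjusted p of 0.05, and *C3* and *CFD* were among them with adjusted p values of 0.0374 and 0.0434.

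**Figure D1:**
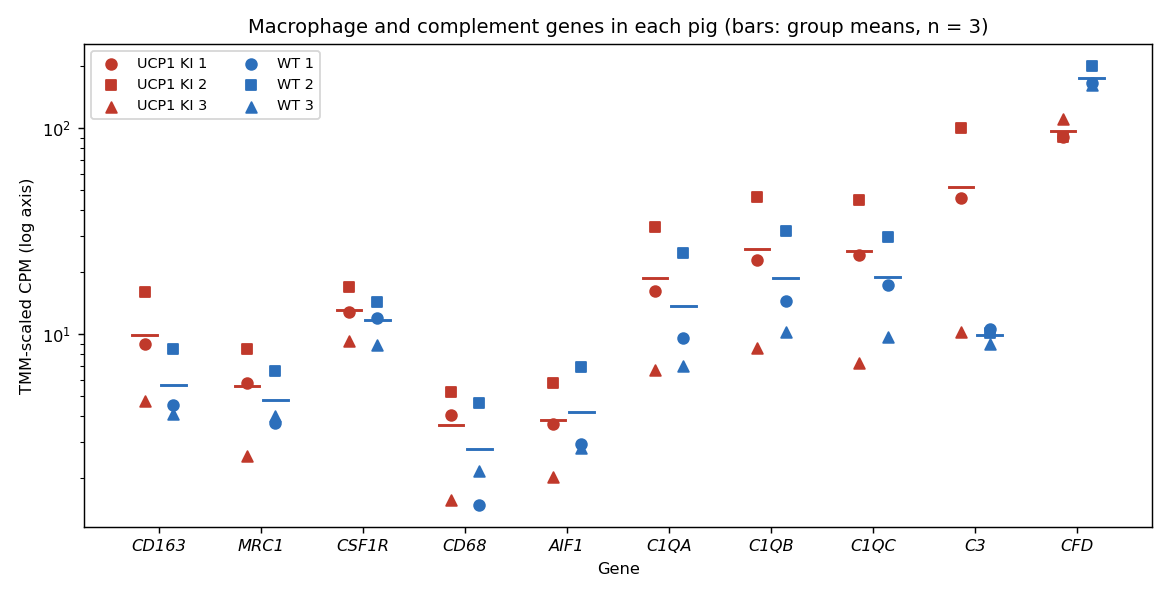
TMM-scaled CPM (log axis) of the 10 genes, with 1 point per pig, red for UCP1 KI and blue for WT, a marker shape for each replicate number and a bar at each group mean (n = 3). The groups overlapped for 9 genes, and for *CFD* the 3 UCP1 KI pigs lay at or below 110.9 CPM while the 3 WT pigs lay at or above 161.5 CPM.

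*CD163* (ENSSSCG00000033146, chromosome 5, 63300200 to 63334497 on Sscrofa11.1) encodes the scavenger receptor that takes up haemoglobin bound to haptoglobin, and it marks resident macrophages. It was measured at 8.96, 16.0 and 4.74 CPM in UCP1 KI replicates 1 to 3 and at 4.52, 8.47 and 4.10 CPM in WT replicates 1 to 3. UCP1 KI replicates 1 and 2 were above every WT pig, and UCP1 KI replicate 3 lay inside the WT range. The log2 fold change, 0.80 (standard error 0.49, edgeR adjusted p = 0.693), did not pass the limits and lay between 0.26 when UCP1 KI replicate 2 was left out and 1.20 when WT replicate 2 was. *CD163* passed the limits without UCP1 KI replicate 3, at 1.12, and with scaling by library size only, at 1.11.

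*MRC1* (ENSSSCG00000011038, chromosome 10, 44107926 to 44226734), the mannose receptor that binds sugars on microbes and on spent glycoproteins, was measured at 5.82, 8.44 and 2.57 CPM in UCP1 KI pigs and at 3.72, 6.65 and 4.04 CPM in WT pigs. The highest and the lowest pig were both UCP1 KI pigs, so that the UCP1 KI pigs spanned the whole WT range. The log2 fold change, 0.23 (standard error 0.46, edgeR adjusted p = 0.905), turned to -0.20 without UCP1 KI replicate 2.

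*CSF1R* (ENSSSCG00000014441, chromosome 2, 151102138 to 151130311), the receptor for the growth factors CSF1 and IL-34, varied least of the 8 macrophage and C1q genes. It was at 12.9, 17.0 and 9.27 CPM in UCP1 KI pigs and at 11.99, 14.3 and 8.88 CPM in WT pigs. The ratio of the highest to the lowest pig was 1.84 within the UCP1 KI group and 1.61 within the WT group. The log2 fold change, 0.16 (standard error 0.31, edgeR adjusted p = 0.904), was smaller than its error.

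*CD68* (ENSSSCG00000017956, chromosome 12, 52874754 to 52877256) encodes a glycoprotein of macrophage lysosomes. It was at 4.07, 5.27 and 1.56 CPM in UCP1 KI pigs and at 1.49, 4.64 and 2.17 CPM in WT pigs. The groups overlapped over most of their range, with a log2 fold change of 0.40 (standard error 0.57, edgeR adjusted p = 0.866) that fell to 0.03 without UCP1 KI replicate 2.

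*AIF1* (ENSSSCG00000032341, chromosome 7, 23711752 to 23731191) encodes IBA1, an actin-binding protein of macrophages and microglia. It was at 3.69, 5.83 and 2.04 CPM in UCP1 KI pigs and at 2.92, 6.94 and 2.80 CPM in WT pigs, and was the gene of this group with its highest value in a WT pig. The log2 fold change of -0.13 (standard error 0.51, edgeR adjusted p = 0.953) was 0.20 with library size only. In the RefSeq annotation of Sscrofa11.1 its span overlaps those of *LST1* and *NCR3*, and since the study does not state that reads were counted by strand, a part of its reads could belong to either neighbour.

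The 3 C1q chains are encoded side by side. *C1QA* (ENSSSCG00000003524), *C1QC* (ENSSSCG00000038706) and *C1QB* (ENSSSCG00000033512) lie in this order within 19.8 kb of chromosome 6, from 80586259 to 80606076, with gaps of 3377 and 4215 bases and with 0 other genes between them. The protein is built from equal numbers of the 3 chains, each with a collagen-like stalk and a globular head.

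*C1QA* was at 16.2, 33.0 and 6.73 CPM in UCP1 KI pigs and at 9.59, 24.8 and 7.01 CPM in WT pigs. *C1QB* was at 22.9, 46.4 and 8.61 CPM in UCP1 KI pigs and at 14.6, 31.6 and 10.3 CPM in WT pigs. *C1QC* was at 24.1, 44.9 and 7.26 CPM in UCP1 KI pigs and at 17.3, 29.6 and 9.74 CPM in WT pigs. The order of the pigs was the same for all 3 chains, from UCP1 KI replicate 2 at the top through WT replicate 2, UCP1 KI replicate 1, WT replicate 1 and WT replicate 3 to UCP1 KI replicate 3. UCP1 KI pigs thus held both the highest and the lowest place.

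The log2 fold changes of *C1QA*, *C1QB* and *C1QC* were 0.44 (standard error 0.65), 0.47 (standard error 0.63) and 0.43 (standard error 0.64), and the edgeR adjusted p values were 0.871, 0.858 and 0.872. All 3 turned negative without UCP1 KI replicate 2, to -0.27, -0.26 and -0.27. Without WT replicate 2 they were 1.17, 1.06 and 0.91. The highest UCP1 KI pig exceeded the lowest by 4.91 times for *C1QA*, 5.39 times for *C1QB* and 6.19 times for *C1QC*, which is more than the difference between the group means.

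The sum of the 3 chains varied 5.51-fold over the 6 pigs, from 22.6 to 124 CPM, and their shares varied less. The highest share exceeded the lowest 1.09 times for *C1QB*, 1.29 times for *C1QA* and 1.30 times for *C1QC*. *C1QB* took between 35.1% and 38.1% of the counts on the 3 chains, *C1QA* between 23.1% and 29.8% and *C1QC* between 32.1% and 41.8%. The share of *C1QB* averaged 37.2% ± 0.957 (SD, n = 3) for UCP1 KI and 36.6% ± 1.51 (SD, n = 3) for WT. None of the 3 shares separated the groups (two-sided exact permutation tests, p between 0.5 and 0.7). These shares depend on the length of each mRNA, which was not used here, so only their differences between pigs can be read.

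**Figure D2:**
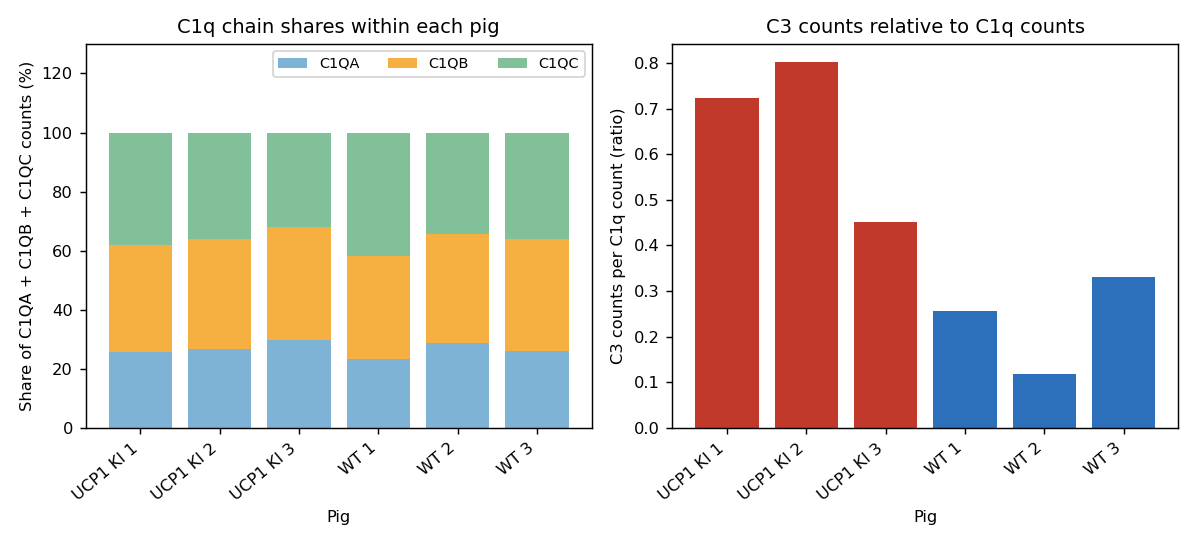
Left, the share of counts (%) that each C1q chain took of the counts on all 3 chains in each pig. Right, the counts of *C3* divided by the summed counts of the 3 C1q chains in each pig (bars from 0, red for UCP1 KI and blue for WT). The shares stayed within 10 percentage points of each other for each chain, and the *C3* ratio was at or above 0.453 in UCP1 KI pigs and at or below 0.332 in WT pigs.

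In TMM-scaled CPM, the 8 macrophage and C1q genes shared their 3 highest pigs, which came from both groups, though not the order of the pigs. These were UCP1 KI replicates 1 and 2 and WT replicate 2, a set read from the values of the 8 genes themselves. The same pigs were highest in 8 of the 23 other genes tested of the macrophage list (34.8%). They were highest in 5 of 15 other complement genes (33.3%) and in 5.81% of all genes tested. For *CSF1R* the set depends on scaling, as its raw counts were 391 in WT replicate 2 but 435 in WT replicate 1. The summed level of the 8 genes was 98.7, 177 and 42.8 CPM in UCP1 KI pigs and 66.1, 127 and 49.1 CPM in WT pigs (two-sided exact permutation test, p = 0.8). Of the 8 genes, 7 had a positive log2 fold change, with a median of 0.41 beside a median of -0.02 over all genes tested. Without UCP1 KI replicate 2, 2 of the 8 were positive and the median was -0.23. Without WT replicate 2, all 8 were positive and the median was 0.95. With scaling by library size only, which raised the median of all genes from -0.02 to 0.24, the median of the 8 genes was 0.73. Relative to *CSF1R*, the counts of *CD163* were 0.694, 0.937 and 0.511 for UCP1 KI against 0.377, 0.593 and 0.462 for WT, with overlap (two-sided exact permutation test, p = 0.2).

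*C3* (ENSSSCG00000013551, chromosome 2, 72431470 to 72471622) encodes the protein whose cleavage product binds covalently to targets of complement. The UCP1 KI pigs had 1416, 3558 and 386 counts of it and the WT pigs 386, 279 and 269, which corresponds to 45.8, 99.8 and 10.2 CPM against 10.6, 10.2 and 8.98 CPM. UCP1 KI replicates 1 and 2 were far above every WT pig, whereas UCP1 KI replicate 3 lay among the WT pigs. The WT pigs differed among themselves by 1.19 times, and the UCP1 KI pigs by 9.76 times.

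The log2 fold change of *C3*, 2.39 (standard error 0.70), corresponds to a 5.23-fold higher level in UCP1 KI pigs and had an unadjusted p of 0.00963 and an adjusted p of 0.583 from edgeR. Since the groups overlapped through UCP1 KI replicate 3, the two-sided exact permutation test gave p = 0.2, where 0.1 is the smallest p that 3 pigs against 3 allow. *C3* passed both limits in each of the 6 fits with a pig left out. Its log2 fold change was smallest without UCP1 KI replicate 2, at 1.50 with an unadjusted p of 0.0383, and largest without UCP1 KI replicate 3, at 2.86 with an unadjusted p of 0.000126, both by edgeR.

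Divided by the summed counts of the 3 C1q chains of the same pig, the counts of *C3* were 0.724, 0.802 and 0.453 for UCP1 KI against 0.256, 0.119 and 0.332 for WT. By this ratio, which was chosen after the values were seen, each UCP1 KI pig was above each WT pig (exact permutation test, two-sided, p = 0.1). WT replicate 2, which ranked just behind UCP1 KI replicate 2 in each C1q chain, had the lowest ratio of all 6 pigs.

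*CFD* (ENSSSCG00000013418, chromosome 2, 77509792 to 77511988) lies 5.04 Mb from *C3*. The UCP1 KI pigs had 2802, 3214 and 4186 counts of it and the WT pigs 5979, 5490 and 4841, or 90.6, 90.1 and 110.9 CPM against 164.8, 200.5 and 161.5 CPM. It was the gene of the 10 without overlap between the groups, which was the case for 15.3% of all genes tested, with 7.69% lower and 7.59% higher in every UCP1 KI pig. Among UCP1 KI pigs *CFD* varied least of the 10 genes, with a ratio of the highest to the lowest pig of 1.23, and among WT pigs the ratio was 1.24.

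*CFD* fell by 0.85 on the log2 scale (standard error 0.23), which is 1.81-fold lower in UCP1 KI pigs, with an unadjusted p of 0.00655 and an adjusted p of 0.583 from edgeR (exact permutation test, two-sided, p = 0.1, which is the minimum for 3 pigs against 3). It passed both limits with each pig left out, with log2 fold changes between -0.96 when UCP1 KI replicate 3 was left out and -0.75 when WT replicate 2 was. With library size only it did not pass, at -0.58 with an unadjusted p of 0.0780 from edgeR, a setting under which the median of all genes was 0.24. Its RefSeq span overlaps that of *MED16* (ENSSSCG00000013416), a subunit of the Mediator complex, which was at 17.4, 17.2 and 27.9 CPM in UCP1 KI pigs and at 13.2, 11.7 and 18.4 CPM in WT pigs. *MED16* was thus not lower in UCP1 KI pigs (0.53 on the log2 scale, standard error 0.30, edgeR adjusted p = 0.669).

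**Figure D3:**
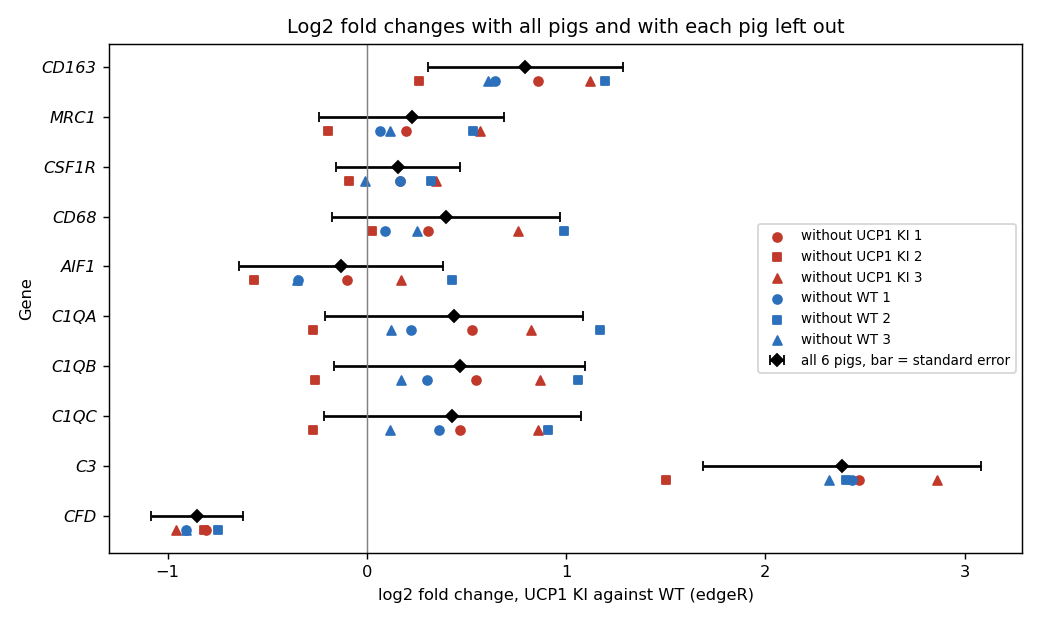
Log2 fold change of UCP1 KI against WT for each of the 10 genes from edgeR, with black diamonds for all 6 pigs (bar, standard error) and coloured points for the fits without 1 pig. The points of *C3* stayed at or above 1.50 and those of *CFD* at or below -0.75, while those of *MRC1*, *CSF1R*, *AIF1* and the 3 C1q chains lay on both sides of 0.

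Markers of other cell types were read beside these genes. The summed level of the T and NK cell markers *CD2*, *CD3D*, *CD3E* and *NKG7* was 14.3, 32.5 and 3.02 CPM in UCP1 KI pigs and 5.82, 7.01 and 2.67 CPM in WT pigs. It was highest in the same 2 UCP1 KI pigs as *C3*. The groups overlapped for each of these 4 markers, and 2 passed the limits, *CD2* with a log2 fold change of 2.50 and *CD3E* with 1.84, whereas *CD3D* (1.45) and *NKG7* (1.35) did not. Without UCP1 KI replicate 2, *CD2* was at 1.52 and *CD3E* at 0.94, and neither passed. *CD2* also did not pass without WT replicate 3 (2.32), nor *CD3E* without any 1 of the WT pigs (between 1.58 and 2.03) or with the replicate block (1.47). The 3 neutrophil markers found, *S100A8*, *S100A12* and *CSF3R*, were too low to be tested and summed to 1.75, 1.63 and 0.159 CPM in UCP1 KI pigs against 0.11, 0.548 and 0.267 CPM in WT pigs, with the highest sums in the same 2 UCP1 KI pigs. The dendritic cell markers *XCR1* and *FLT3* summed to 5.37, 8.83 and 1.91 CPM against 2.98, 2.59 and 1.57 CPM, and neither passed (log2 fold changes 1.31 and -0.19). Of 4 endothelial markers, *TEK*, a receptor for angiopoietins, passed the limits as higher without overlap (1.20), and *PECAM1*, *CDH5* and *KDR* did not pass (0.01, 0.04 and 0.50). Mast cell markers *MS4A2*, *KIT* and *HDC* summed to 2.94, 3.14 and 2.60 CPM in UCP1 KI pigs against 3.67, 5.62 and 1.43 CPM in WT pigs. *MS4A2* (-0.16) and *KIT* (-0.36) did not pass, and *HDC* was too low to be tested. Among B cell markers, *CD79A* (0.02) and *CD79B* (-0.87) did not pass either, and the groups overlapped for both. The part of other leukocytes and of endothelial cells in the *C3* result was not tested.

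Some fibroblast markers were lower beside *CFD*. The summed level of *PDGFRA*, *DCN*, *LUM*, *COL1A1* and *COL3A1* was 342, 199 and 367 CPM in UCP1 KI pigs and 636, 927 and 578 CPM in WT pigs, without overlap. Of the 5, *COL1A1* (log2 fold change -1.86), *COL3A1* (-1.57) and *LUM* (-0.57) passed the limits, and *DCN* (-0.39) and *PDGFRA* (-0.08) did not and overlapped. *COL1A1* passed in each alternative fit, *COL3A1* did not without WT replicate 2 (-1.30), and *LUM* did not with library size only (-0.31), with all genes with any count (-0.55), with the replicate block (-0.55), or without any 1 pig other than WT replicate 3 (between -0.65 and -0.45). The sum of 3 red blood cell markers, nearly all of it *HBB*, was 76.0, 11.4 and 73.2 CPM in UCP1 KI pigs against 105, 107 and 180.2 CPM, also without overlap, but 0 of the 3 passed the limits, and *ALAS2* overlapped. The sum of the 9 adipocyte markers overlapped, at 180.5, 331 and 227 CPM in UCP1 KI pigs and 152, 415 and 318 CPM in WT pigs. Of the 8 that could be tested, *LIPE*, a lipase of fat and muscle, passed the limits as higher (log2 fold change 1.12). The other 7 did not pass, with negative values for *ADIPOQ* (-1.26), *FABP4* (-1.22), *PLIN1* (-1.13), *CIDEC* (-0.80) and *LPL* (-0.45), positive ones for *PLIN4* (0.49) and *DGAT2* (0.50), and a median over the 8 of -0.62. The ratio of *CFD* counts to those of the adipocyte hormone gene *ADIPOQ* ranged from 12.8 in WT replicate 2 to 103 in WT replicate 1, and UCP1 KI pigs lay between, at 37.9, 42.9 and 21.2. Per count of *PLIN1*, a coat protein of lipid droplets, it was 58.4, 139.7 and 33.0 in UCP1 KI pigs against 127, 23.7 and 64.5 in WT pigs, with overlap and with the highest value in UCP1 KI replicate 2. The part of fibroblasts, blood and fat cells in the *CFD* result was not tested.

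**Figure D4:**
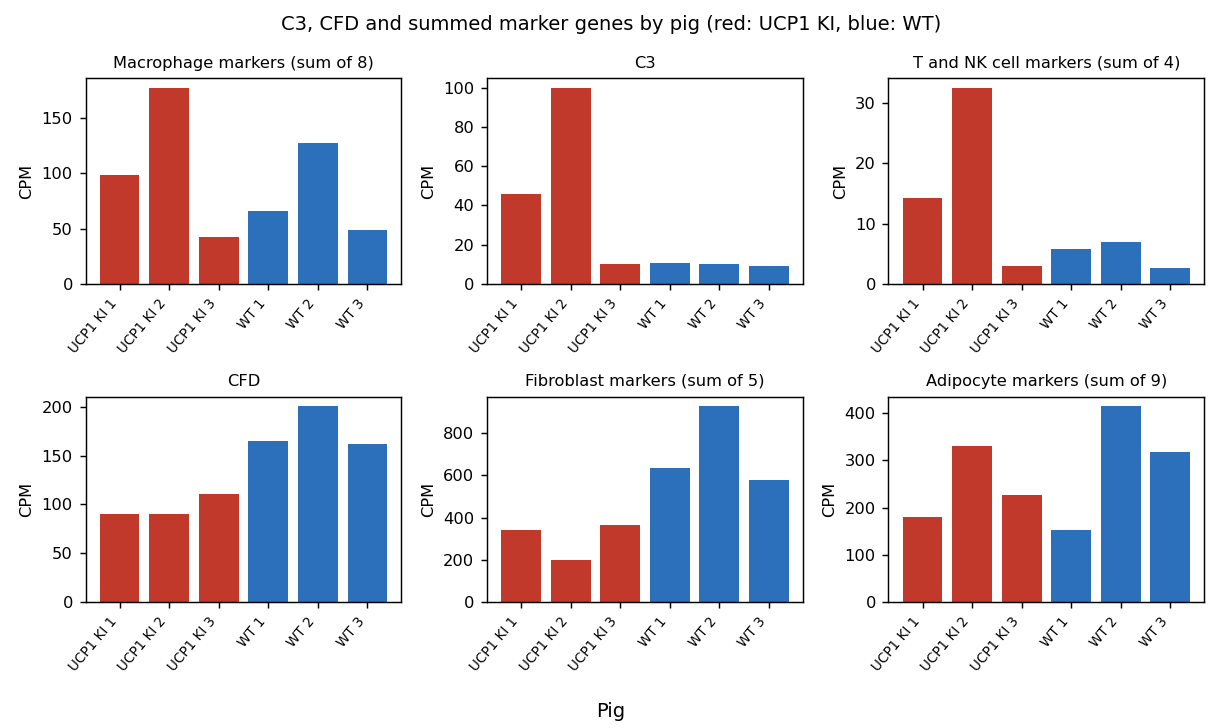
CPM in each pig (bars from 0, red for UCP1 KI and blue for WT) of *C3*, of *CFD*, and of the summed markers of macrophages, T and NK cells, fibroblasts and adipocytes. *C3* and the T and NK cell sum were highest in UCP1 KI replicates 1 and 2, and *CFD* and the fibroblast sum did not overlap between the groups, with UCP1 KI lower.

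Other genes of the macrophage list, which also holds the growth factors *CSF1* and *IL34*, did not share a direction. Of 33 listed, 27 were found by symbol and 23 could be tested. Of these, 11 had a positive and 12 a negative log2 fold change, with a median of -0.01. Among the 13 surface proteins tested, 6 were positive and 7 negative, and among 5 adaptors and effectors, 3 and 2. Past the limits was 1 of the 23, or 4.35%, against 8.19% of all genes. This was *ITGAM* (ENSSSCG00000007754), the alpha chain of complement receptor 3, which binds targets coated with fragments of C3. *ITGAM* was at 14.6, 15.8 and 3.87 CPM in UCP1 KI pigs and at 4.99, 4.67 and 2.27 CPM in WT pigs, so that UCP1 KI replicate 3 again lay inside the WT range. It differed by 1.52 on the log2 scale (standard error 0.56, unadjusted p = 0.0270, adjusted p = 0.583, edgeR) and did not pass when either of the first 2 UCP1 KI replicates was left out (1.30 and 1.21), nor when WT replicate 3 was (1.24).

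Of the abundant genes of each role in this list, *STAB1*, a scavenger receptor of macrophages and sinusoidal endothelium, had a log2 fold change of -0.64 (standard error 0.36). *CTSS*, a lysosomal protease of antigen presentation, had one of -0.01 (standard error 0.44), and *CSF1*, the growth factor that binds the product of *CSF1R*, one of 0.14 (standard error 0.84). *CSF1* was at 89.0, 39.6 and 8.24 CPM in UCP1 KI pigs and at 33.96, 76.0 and 13.8 CPM in WT pigs. It was lowest in replicate 3 of both groups. *IRF8*, a transcription factor of monocytes and dendritic cells, was at 161.7, 197 and 150.1 CPM in UCP1 KI pigs and at 129, 127 and 125.1 CPM in WT pigs, without overlap, and the difference of 0.42 on the log2 scale (standard error 0.22, edgeR adjusted p = 0.653) did not pass the limits.

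Of 36 other complement genes listed, 23 were found and 15 tested, of which 11 had a positive log2 fold change, with a median of 0.29. Past the limits was 1 of the 15, or 6.67%, and 0 where at least 10 counts were required in every pig. The gene was *CFB* (ENSSSCG00000024914), which encodes factor B, the substrate of factor D, and which was kept by the filter on low counts through the UCP1 KI pigs, the group where it is high. The UCP1 KI pigs had 100, 57 and 19 counts of it and the WT pigs 19, 2 and 0, so the count of UCP1 KI replicate 3 equalled that of WT replicate 1, and the other 2 WT pigs were below the limit of 3 counts. The fitted difference of 3.08 on the log2 scale (standard error 1.17, unadjusted p = 0.0316, adjusted p = 0.583, edgeR) depends on the prior count of the fit and is given as a description. It did not pass when UCP1 KI replicate 1 was left out (2.33), nor without its replicate 2 (3.15), nor when either WT replicate 2 or 3 was removed (2.71 and 2.52). Without WT replicate 1 it was 5.51 and passed, with 2 and 0 counts in the WT pigs left. *CFP*, the gene of properdin, which stabilises the same convertase, was at 12.1, 10.4 and 9.22 CPM in UCP1 KI pigs and at 10.4, 6.72 and 9.04 CPM in WT pigs (log2 fold change 0.28, standard error 0.26).

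In the classical and lectin pathways, all 5 genes tested had a positive log2 fold change and 0 passed the limits. *C4A* was at 19.4, 46.8 and 7.07 CPM in UCP1 KI pigs and at 3.50, 25.1 and 10.04 CPM in WT pigs (log2 fold change 0.92, standard error 0.82), with its highest values in the same 3 pigs as C1q. Of the terminal pathway, whose proteins form the membrane attack complex, *C7* alone could be tested (-0.39, standard error 0.78), and *C8A* and *C8B* had 0 counts in every pig, which allows up to 0.11 CPM. Among the regulators, *CLU*, the gene of clusterin, was at 138.7, 162 and 54.2 CPM in UCP1 KI pigs and at 80.1, 113 and 71.4 CPM in WT pigs (0.42, standard error 0.42). *ITGB2*, the beta chain that pairs with the product of *ITGAM*, had a log2 fold change of 0.39 (standard error 0.65).

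**Figure D5:**
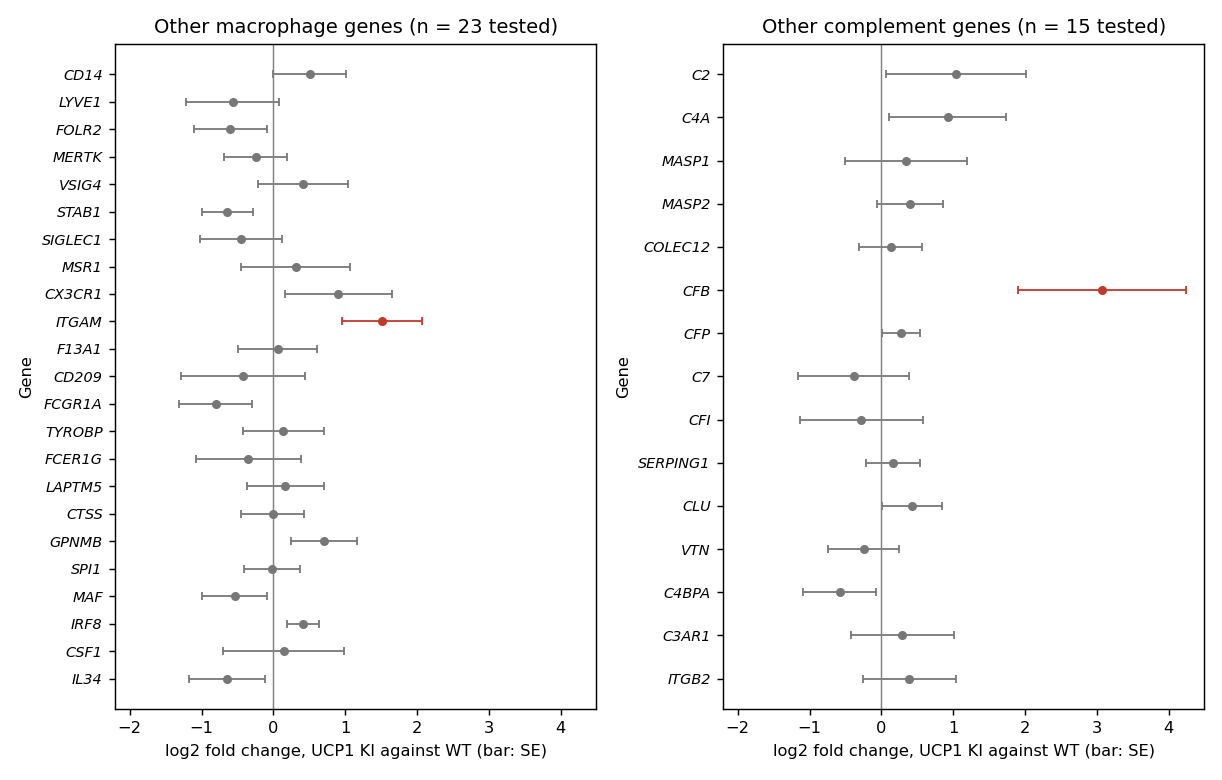
Log2 fold change of UCP1 KI against WT (point) with its standard error (bar) from edgeR, red where the limits were passed. On the left are 23 other genes of the macrophage list and on the right 15 other complement genes. *ITGAM* at 1.52 and *CFB* at 3.08 were the genes past the limits, the second with 19, 2 and 0 counts in WT pigs and kept by the filter through the UCP1 KI pigs.

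The genes most like *C1QA*, *CD163*, *C3* and *CFD* were taken by Pearson correlation of log2(CPM + 1) over the 6 pigs, among 11302 genes with a symbol. The points are whole libraries, so genes from the same cells and differences in scaling both enter, and the top of so many genes is high by selection. *C1QA* was most like *C1QB* (r = 0.994), *SLA-DMB*, an MHC class II chaperone (0.991), and *UBD*, a ubiquitin-like modifier (0.990). *CD163* was most like *LY86* (0.993) and *CD180* (0.992), which encode a receptor pair of myeloid and B cells, and *GZMA* (0.992), a granzyme of cytotoxic lymphocytes. *C3* was most like *CD2* (0.996), an adhesion receptor of T and NK cells, *PRF1* (0.992), the gene of perforin, and *FKBP14* (0.992), a prolyl isomerase of the endoplasmic reticulum. Without UCP1 KI replicates 1 and 2, which lay farthest from the median of *C3*, these 3 values were 0.953, 0.741 and 0.815 over 4 pigs. The values for the other 3 members, each without the pair of pigs farthest from its median, were between 0.973 and 0.991. *CFD* was most like *ASB3* (0.990), *TBCC* (0.989) and *OGN* (0.988), the last of these the gene of osteoglycin, a proteoglycan of connective tissue.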

How the data were processed

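RNA-seq libraries of longissimus dorsi muscle from 3 UCP1 KI and 3 WT pigs were analysed, with groups and replicate numbers taken from the sample titles. On paired-end reads the authors ran FastQC 0.11.2 and Trimmomatic 0.36, then HISAT2 2.0 against Sscrofa11.1 (build per the submitters' processing notes), and they used StringTie 1.3.3b and DESeq2 1.12.4. They deposited raw counts per Ensembl gene, without normalization, and 0 columns were left unused. The counting tool and annotation release are not given in the sources used here.

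An Ensembl list of pig genes gave symbols for 14864 identifiers, and positions came from RefSeq on Sscrofa11.1. Genes were kept by filterByExpr, scaled with TMM over the genes kept and tested, two-sided, by edgeR 4.0.16 in R 4.3.3 with the quasi-likelihood test, group being the only term. The standard error is the size of the log2 fold change divided by the square root of F. Limits were p under 0.05 before adjustment and a log2 fold change beyond 0.5 in either direction, those of the study, with Benjamini-Hochberg adjustment over all genes. DESeq2 1.42.0 was an alternative, as were other scalings and filters, a replicate block, and each pig left out with the same genes tested. Exact permutation tests used log2(CPM + 1) or log2 ratios. No pair of pigs within a group agreed within sampling noise. p values measure the spread between these pigs.

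The 10 genes, the lists and the tests were chosen with earlier results of these data known. Named beside the 10 genes were, by rule, listed genes past both limits, the most abundant gene of each role, and the 3 genes most correlated with *C1QA*, *CD163*, *C3* and *CFD*. Cell type markers were listed with them. *MED16*, *C8A*, *C8B*, the markers named singly and the ratios were added after values were seen. Listed genes without an identifier under their symbol were not analysed here. No sequences are shown.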

Additional observations from a re-analysis of the deposited data

How the results depend on the processing

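*C3* and *CFD* passed both limits under each of the 12 other fits, except *CFD* with library size only. Leaving out 1 pig gave 2 to 3 of the 10 genes, 0 to 2 of the macrophage list, 0 to 2 of the complement list and 651 to 1514 of all genes past the limits (651 without UCP1 KI replicate 2, 683 without WT replicate 2). With adjusted p from edgeR these counts were 0, 0, 0 and 0. DESeq2 gave 1309 genes, and at its adjusted p 127. The macrophage list had 2 genes past the limits with all genes with any count, and the complement list 0 with at least 10 counts in every pig, where *CFB* was not tested. With library size only, 82.7% of 1124 genes past the limits were higher in UCP1 KI pigs, in place of 46.9%. Direction changed for *AIF1* with library size only (0.20), and over the fits without 1 pig for *AIF1* (-0.57 to 0.43), *C1QA* (-0.27 to 1.17), *C1QB* (-0.26 to 1.06), *C1QC* (-0.27 to 0.91), *CSF1R* (-0.090 to 0.35) and *MRC1* (-0.20 to 0.57). The cause was not tested. Same-numbered pigs are not stated to be paired, and their deviations from the group means correlated at -0.003, 0.095 and 0.287. For pigs with different numbers the values lay between -0.204 and 0.144. With the replicate block 1114 genes, 2 of the 10 genes and 1 of each list passed, and *C3* was at 1.89. Having 3 pigs a group limits all tests.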

Other observations

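*CD79A*, a chain of the B cell receptor, was listed among the B cell markers and was at 103, 113 and 76.8 CPM in UCP1 KI pigs and at 73.7, 105 and 109.6 CPM in WT pigs, whereas *MS4A1*, a surface protein of B cells, was at 0.386 CPM or below in every pig. *FCGR1A*, an Fc receptor of monocytes, had 11, 15 and 26 counts in the UCP1 KI replicates against 28, 19 and 33 in the WT replicates. In CPM the groups did not overlap, by a narrow margin (at most 0.689 in UCP1 KI and at least 0.694 in WT), and it did not pass the limits (log2 fold change -0.80, standard error 0.51). *LYZ* had 0 counts in all 6 pigs. These genes were chosen after their values were seen.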
